A study of Mus musculus with 16 samples.

Results

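The regions described here are the histone ChIP-seq peaks of mouse chromosome 9 in immortalized mesenchymal stem cell (MSC) lines with and without Dicer. Every peak listed on chromosome 9 was taken, 16124 of the 289380 peaks that 24 lists hold on chromosomes 1 to 19 and X. Overlapping or touching peaks of a mark were merged into regions. This gave 1238 regions of H3K4me3, 2526 of H3K36me3 and 1122 of H3K27me3 on chromosome 9, together 4886 of 89014 regions. Chromosome 9 was chosen from earlier results on these same lists, for a lean of its KO against WT differences to the WT side. Every comparison of KO with WT below is therefore a description without a test, and the values that chose the chromosome support nothing by themselves.

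The cells were monoclonal MSC lines of C57BL/6 background that had been immortalized and were grown in alpha-MEM with fetal bovine serum. In the WT group both Dicer alleles were floxed (Dicer f/f), and in the KO group both were deleted (Dicer -/-). The 12 ChIP libraries cover 3 marks, 2 genotypes and 2 replicates each, and the 4 whole-cell extract samples served as controls without lists of their own. The labels do not say that the replicates are separate cultures or separate lines, nor how many clones stand for a genotype. A property of a clone therefore cannot be told apart from the loss of Dicer, and the copy number of chromosome 9 was not measured in these files. The lists hold peaks and no signal between them. An annotation of their build, mm9, was not used, so the identity of the cells was not checked against marker genes.

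Dicer cuts microRNA precursors into mature microRNAs, which lower the output of many messenger RNAs. H3K4me3 marks the promoters of active genes and of genes held ready for activation. H3K36me3 is laid down over the bodies of genes while they are transcribed. H3K27me3 is the mark of Polycomb repressive complex 2, which keeps developmental genes silent, and it can share promoters with H3K4me3 in stem cells. Each mark is thus read at another place, and a chromosome can be followed in promoters, transcribed bodies and Polycomb domains at once.

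Every library comes with 2 lists. Its extract list holds peaks called over whole-cell extract, and its difference list was read as peaks called over the same-numbered library of the opposite genotype. A library with more reads or better enrichment lists more and wider peaks. The libraries differed much in this: H3K27me3 had 703 and 17491 peaks in KO replicates 1 and 2 and 2558 and 14932 in WT replicates 1 and 2. For this reason chromosome 9 was read as its share of a library's own list, or as the log2 ratio of KO over WT minus that of all other chromosomes together, called the relative log2 ratio. A value below 0 means that chromosome 9 lost more, or gained less, than the rest of the same pair of lists. Read depth was not used here, so no interval for counting error was given for covered lengths.

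Each KO library listed far fewer H3K27me3 peaks on chromosome 9 than the WT library of its number. KO replicate 1 listed 1 H3K27me3 peak on the chromosome, of 657 bp at chr9:37266621-37267277 (mm9), and KO replicate 2 listed 204 peaks over 0.292 Mb. WT replicate 1 listed 185 peaks over 0.356 Mb and WT replicate 2 listed 1080 peaks over 2.60 Mb. KO replicate 2, whose list is the largest of the mark, listed more peaks here than WT replicate 1, whose list is much smaller, and far fewer than WT replicate 2. Chromosome 9 held 0.0897% and 0.848% of the H3K27me3 length in KO replicates 1 and 2, against 7.61% and 6.84% in WT. The groups did not overlap.

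The H3K36me3 length of chromosome 9 was 3.01 Mb and 4.33 Mb in KO replicates 1 and 2, and 6.45 Mb and 12.4 Mb in WT. As a share of each library's list it was 3.46% and 3.93% in KO and 5.96% and 7.03% in WT, again without overlap. The number of peaks moved less, from 6.18% and 6.26% of the WT peaks to 5.22% in each KO library. KO peaks of this mark were short on chromosome 9, with a mean width of 1726 bp and 2306 bp against 2654 bp and 3107 bp on the other chromosomes. In WT the means on chromosome 9 were 2705 bp and 5208 bp, against 2807 bp and 4601 bp elsewhere. The lower KO share of H3K36me3 thus came more with narrower peaks than with fewer peaks per list. Peak number and width do not separate shorter regions from absent ones. Of the regions on chromosome 9, 52.6% were listed in WT replicate 2 alone and 10.8% in both WT libraries and no KO library.

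H3K4me3 differed least. Chromosome 9 held 4.89% and 4.72% of the H3K4me3 length in KO replicates 1 and 2 and 5.43% and 5.67% in WT, from 1.58, 2.49, 1.36 and 2.496 Mb in KO replicates 1 and 2 and WT replicates 1 and 2. The WT shares were above both KO shares. In all 3 marks the WT shares lay above the KO shares, a pattern that 20% of the 20 chromosomes had in H3K4me3, 25% in H3K36me3 and 50% in H3K27me3. Chromosomes 4 and X had it in all 3 marks too.

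**Figure D1:**
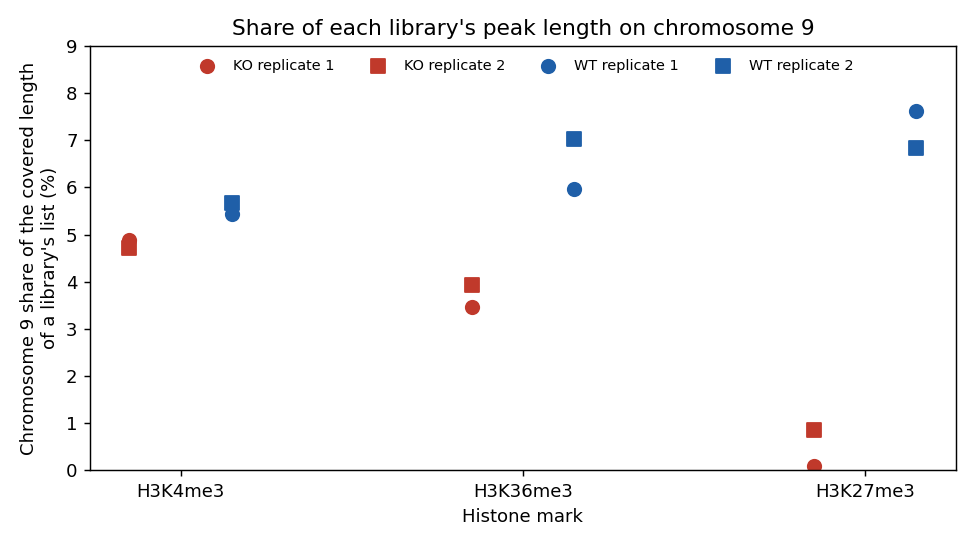
Share of each library's covered peak length that lies on chromosome 9 (vertical axis, %), for 3 marks, with 1 point per library (KO and WT, replicates 1 and 2). WT points lie above KO points in each mark, from 4.72% to 5.67% in H3K4me3, 3.46% to 7.03% in H3K36me3 and 0.0897% to 7.61% in H3K27me3.

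The relative log2 ratio of covered length on chromosome 9 was -0.16 and -0.28 in H3K4me3, for replicates 1 and 2. It was -0.82 and -0.89 in H3K36me3 and -6.52 and -3.10 in H3K27me3. As means with the SD over 2 replicates these were -0.22 ± 0.0843, -0.86 ± 0.0450 and -4.81 ± 2.42. They correspond to 0.860, 0.553 and 0.0356 times the length at which KO over WT on chromosome 9 would equal that of the other chromosomes. The 2 H3K36me3 replicates lay close together, whereas the H3K27me3 replicates lay far apart, and the value of replicate 1 rests on 1 KO peak. The ratio of KO to WT peak number there was 0.00541, with an exact 95% interval of 0.000136 to 0.0305 that covers counting error only. For peak number the relative log2 ratios of replicates 1 and 2 were -0.08 and -0.23 in H3K4me3, -0.26 and -0.28 in H3K36me3 and -5.77 and -2.72 in H3K27me3. Their means with SD were -0.15 ± 0.109, -0.27 ± 0.0155 and -4.25 ± 2.16. Without KO replicate 1 they were -0.22, -0.27 and -2.72, and without KO replicate 2 they were -0.08, -0.27 and -5.77, so the sizes in H3K4me3 and H3K27me3 depend on the library.

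Chromosome 9 was not the only chromosome on the WT side. Ordered from that side by covered length it came after X in H3K4me3, where X had a mean of -0.26, and after X in H3K36me3, where X had -1.20. In H3K27me3 it came first, with X next at -2.61. The 2 replicates of X disagreed in size, with -2.01 and -0.39 in H3K36me3 and -0.41 and -4.80 in H3K27me3. Those of chromosome 9 were alike in H3K36me3. The autosome next to it was chromosome 14 in H3K36me3, with a mean of -0.39 from -0.74 and -0.05, and chromosome 10 in H3K27me3, with -1.43 from -1.71 and -1.15. At the other end stood chromosome 12, with 0.13 in H3K4me3 and 0.39 in H3K36me3, and chromosome 3, with 1.37 in H3K27me3.

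**Figure D2:**
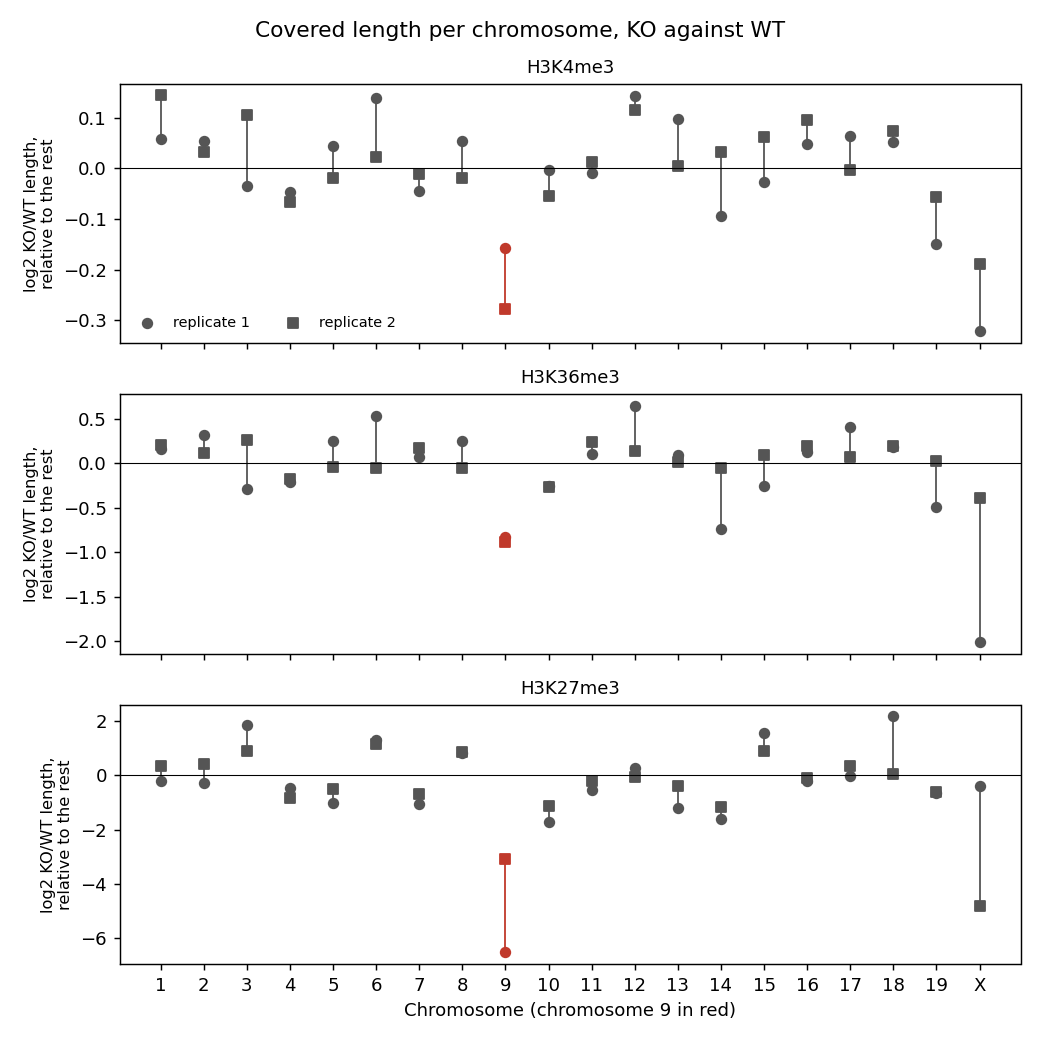
Relative log2 ratio of KO over WT covered length (vertical axis) for chromosomes 1 to 19 and X (horizontal axis), 1 panel per mark, with a circle for replicate 1 and a square for replicate 2. Chromosome 9, in red, has both points below 0 in every mark, from -0.16 and -0.28 in H3K4me3 to -6.52 and -3.10 in H3K27me3. Chromosomes 4, 10 and X also have both points below 0 in every mark.

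To see whether a stretch or the whole of the chromosome leaned to WT, covered length was followed in 25 bins of 5 Mb. A bin was counted when KO and WT together listed at least 10 peaks there in each replicate, and it was on the WT side when its relative log2 ratio was below 0 in both. H3K36me3 was on the WT side in 24 of 25 bins, where 29.1% of the counted bins of all chromosomes were. H3K4me3 was on the WT side in 21 of 25 bins, against 35.7%. H3K27me3 was on the WT side in 6 of 6 counted bins, against 50.9%. A bin could be counted through WT peaks alone, so the H3K27me3 count says little by itself. These counts share the contrast on which the chromosome was chosen and nothing is read from them beyond the position of the difference.

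The difference in H3K36me3 ran from the first bin to the last. In raw length all 25 bins were shorter in KO in replicate 1, and all 25 in replicate 2, beside KO lists that were shorter over the genome too. The relative ratio was below 0 in every bin and replicate but replicate 2 of the 25 to 30 Mb bin, which had -1.13 and 0.24. The lists covered 47.4 and 85.2 kb of it in the KO replicates, against 127 and 112 kb for WT. Bin means ran from -1.58 at 115 to 120 Mb to -0.34 at 35 to 40 Mb, with a median of -0.82 beside a median of 0.07 over the bins of other chromosomes. Even the bin nearest 0 on chromosome 9 was lower than most bins elsewhere: 18.2% of other bins, 85 of 466, lay at or below it.

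Within that common shift some bins stood lower. At 115 to 120 Mb KO replicate 1 covered 112 kb against 215 kb in WT replicate 1, and KO replicate 2 covered 50.6 kb against 450 kb in WT replicate 2, giving -0.66 and -2.496. The WT difference list of replicate 2 had 82 peaks in this bin. At 5 to 10 Mb the KO lists covered 19.3 and 74.3 kb and the WT lists 101.1 and 224 kb, giving -2.06 and -0.94. In each of these bins the low mean came mostly from 1 replicate. The densest H3K36me3 bin of WT replicate 2, at 55 to 60 Mb, had 1030 kb there against 263 kb in KO replicate 2, and 394 against 137 kb in replicate 1. This bin was about as low in both replicates, with -1.24 and -1.33.

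The ratios of single bins were only weakly correlated between replicates. Over the 25 bins of chromosome 9, r between replicates 1 and 2 was 0.16 in H3K36me3 and 0.05 in H3K4me3. Over all counted bins of the genome it was 0.48 and 0.64. The points share libraries and gene density, and r is a description only. Other chromosomes ranged in H3K36me3 from -0.01 on chromosome 6 to 0.90 on chromosome 18, and in H3K4me3 from 0.04 on chromosome 1 to 0.90 on chromosome 16, so a weak r is not particular to chromosome 9. Some bins were low in both replicates, such as 25 to 30 Mb in H3K4me3 with -0.45 and -0.48, and 95 to 100 Mb in H3K36me3 with -1.13 and -1.30. The bins of chromosome 9 had an SD of 0.351 in H3K36me3, the 11th lowest of 20 chromosomes. In H3K4me3 the SD of 0.105 was the lowest of 20. The bins of chromosome 9 thus varied less around their mean in H3K4me3 than those of any other chromosome. A bin with few peaks has a noisier ratio, and this was not adjusted for.

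**Figure D3:**
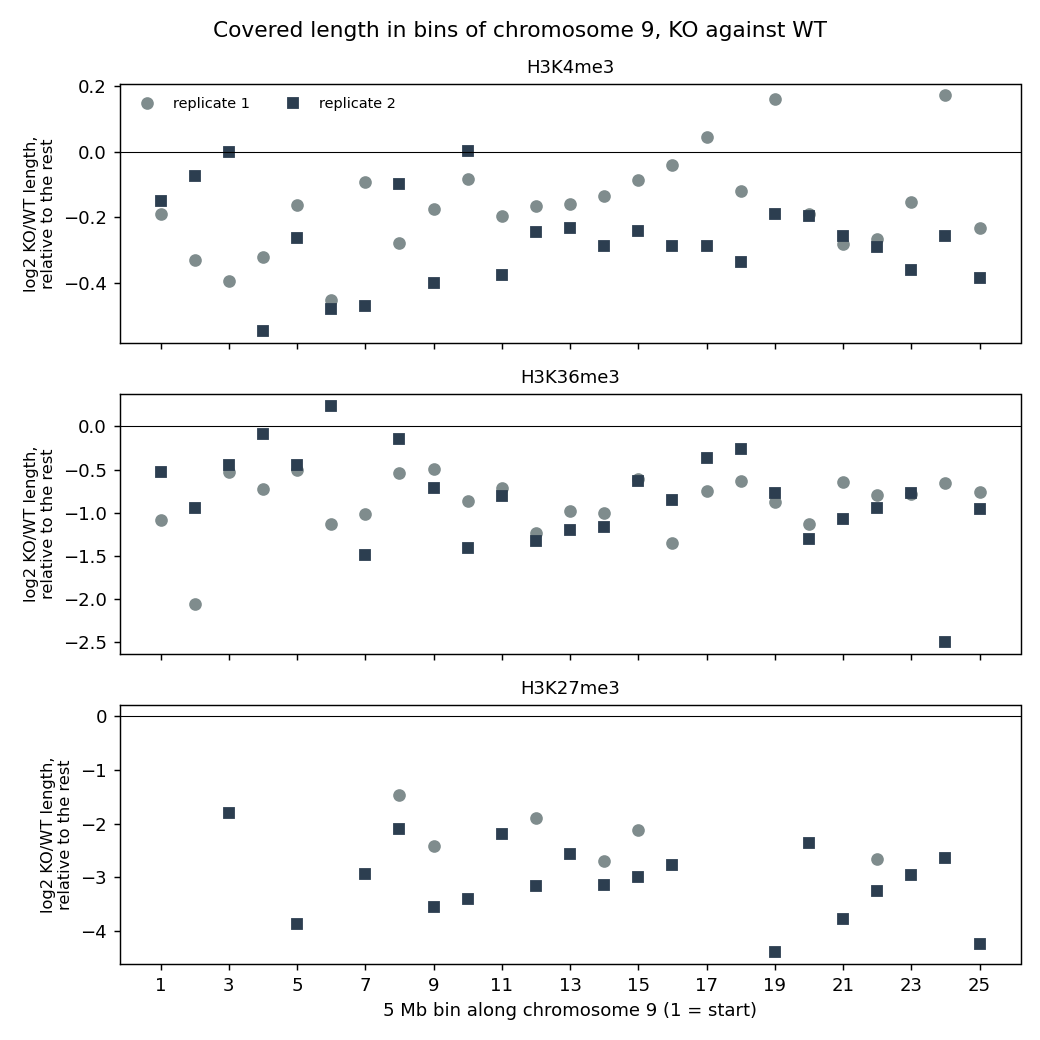
Relative log2 ratio of KO over WT covered length (vertical axis) in 25 bins of 5 Mb along chromosome 9 (horizontal axis), 1 panel per mark, with 1 point per replicate. In H3K36me3 replicate 2 of bin 6, at 0.24, is the only point above 0.

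H3K4me3 bins lay close to each other and close to 0. Their means ran from -0.47 at 25 to 30 Mb to -0.02 at 90 to 95 Mb, with a median of -0.21, beside 0.01 over the bins of other chromosomes. Of those other bins 7.22%, 33 of 457, lay at or below the chromosome 9 median, and 41.1% lay at or below its highest bin. The 4 bins that were not on the WT side in both replicates, at 45 to 50, 80 to 85, 90 to 95 and 115 to 120 Mb, were above 0 in 1 replicate, and no bin was on the KO side in both. Neighbouring bins on the WT side formed runs from 0 to 45 Mb, from 50 to 80 Mb and from 95 to 115 Mb. In raw length the picture was different: KO was shorter in only 2 of 25 bins in replicate 1 and in 12 of 25 in replicate 2. The KO lists of H3K4me3 were longer than the WT lists over the genome. In covered length the WT lean of this mark thus showed mainly relative to the other chromosomes. Difference peaks on the chromosome itself numbered 184 and 143 in WT replicates 1 and 2, against 160 and 120 in KO. Over all chromosomes they numbered 1864 and 1334 in WT and 5677 and 6581 in KO.

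Counting peaks in place of length gave a weaker picture. KO had relatively fewer peaks in both replicates in 14 of 25 H3K4me3 bins and 16 of 25 H3K36me3 bins, where 34.6% and 29.1% of all counted bins did. The opposite held in 1 and 4 bins. At 15 to 20 Mb, for example, H3K36me3 had 27 and 21 peaks in KO and 28 and 12 in WT, yet the KO peaks covered 50.6 and 85.5 kb and the WT peaks 103 and 142 kb.

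H3K27me3 could be followed bin by bin only in replicate 2. KO replicate 2 had peaks in 22 of 25 bins and WT replicate 2 in 24, while KO replicate 1 had its single peak in 1 bin and WT replicate 1 had peaks in 21. In replicate 2 alone, 19 of 19 bins with at least 10 peaks had a relative log2 ratio below 0, against 49.5% of such bins in the genome. The values ran from -4.41 to -1.80. Many of these bins reached 10 peaks through WT, such as 90 to 95 Mb with 1 peak in KO and 13 in WT, so the count is set in part by the minimum and supports nothing. With no minimum, raw length was shorter in KO replicate 2 in 24 of 25 bins. The exception was 5 to 10 Mb, where KO had 2 peaks over 2.56 kb and WT none.

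The richest Polycomb bin of the chromosome, at 105 to 110 Mb, held 377 kb of H3K27me3 in WT replicate 2 and 36.9 kb in KO replicate 2. It held 36.2 kb in WT replicate 1 and none in KO replicate 1. The next, at 40 to 45 Mb, held 281 and 30.4 kb in WT replicates 2 and 1 and 22.3 and 0 kb in KO. Bins poor in the mark were low too, such as 90 to 95 Mb with 48.3 kb in WT replicate 2 and 1.24 kb in KO replicate 2. The lower KO length was therefore not limited to the bins with most of the mark.

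**Figure D4:**
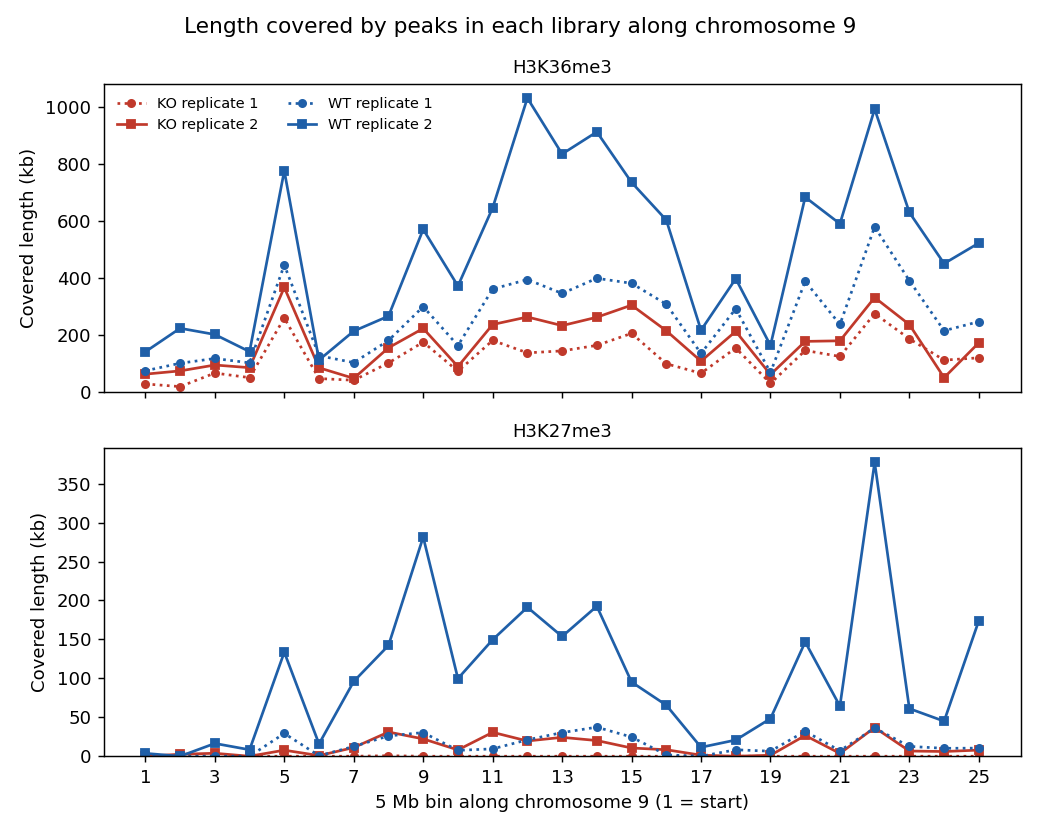
Length covered by peaks (vertical axis, kb) in bins of 5 Mb along chromosome 9 (horizontal axis), for each KO and WT library. KO replicate 2 lies below WT replicate 2 at the H3K27me3 bin of 105 to 110 Mb, 36.9 against 377 kb, and KO lies below the WT library of its number in every H3K36me3 bin.

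Put together over marks, 20 of 25 bins were on the WT side in both replicates of every mark that could be counted there, against 14.7% of bins in the genome. The front and back parts of the chromosome, which together make up all its bins, were both low. The first 12 bins had relative log2 ratios of -0.79 and -0.76 in H3K36me3 and the last 13 had -0.85 and -0.97. In H3K4me3 the values were -0.19 and -0.27, and -0.14 and -0.28. In H3K27me3 replicate 2 they were -2.99 and -3.19, while KO replicate 1 listed none of the mark in the last 13 bins, where WT replicate 1 had 217 kb. Neither of these parts alone carried the difference in H3K36me3 or H3K4me3.

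The H3K36me3 regions present in every library were shorter in KO almost without exception. Of 2526 regions on chromosome 9, 427 (16.9%) were listed in all 4 libraries, against 29.0% on the other chromosomes. Their median log2 ratio of KO over WT length was -0.95 in replicate 1 and -1.06 in replicate 2, against -0.12 and -0.36 elsewhere. KO was shorter in 402 of 427 in replicate 1 (94.1%) and in all 427 in replicate 2 (100%), where 62.2% and 92.1% were shorter on the other chromosomes. The difference on chromosome 9 therefore included regions that were listed in both genotypes. Regions listed in WT replicate 2 alone made up 52.6% of the chromosome's H3K36me3 regions and 30.5% elsewhere. Regions listed in both WT libraries and no KO library numbered 274 (10.8%, against 6.93%), and the reverse 2 (0.0792%, against 0.926%).

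H3K4me3 regions, none of which was assigned to a promoter here, were mostly present in both genotypes. Of 1238 regions 614 (49.6%) were listed in all 4 libraries, against 43.8% elsewhere. Their median log2 ratio of length was 0.08 and -0.07 in replicates 1 and 2, against 0.15 and 0.04 on the other chromosomes. Regions that both KO lists held and both WT lists lacked numbered 43 (3.47%) on chromosome 9 and 6.39% elsewhere. In the other direction there was 1 (0.0808%, against 0.292% elsewhere). Regions held by both WT lists and no KO list were thus not more frequent on chromosome 9. H3K4me3 on chromosome 9 thus differed from the rest of the genome by small amounts of length and by fewer KO-only regions.

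Most H3K27me3 regions of WT replicate 2 were absent from KO replicate 2. Of 1075 regions, 960 were not listed in KO replicate 2, or 89.3% (95% Wilson interval 87.3 to 91.0%), against 55.8% elsewhere. Intervals of shares cover counting error only and take regions as independent, which neighbouring ones may not be. The reverse share was 27.2% of 158 regions on chromosome 9, against 63.2% elsewhere. Of the 960 regions none overlapped an H3K36me3 peak in KO replicate 2, which allows up to 0.3125% and so includes the 0.152% seen elsewhere, and none did in WT replicate 2. H3K4me3 was listed at 77 of them in WT replicate 2 (8.02%, against 12.2% elsewhere) and at 58 in KO replicate 2 (6.04%, against 11.3%). As a set, these regions thus did not carry more of the other marks in KO than in WT.

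Sites with both H3K4me3 and H3K27me3, which in stem cells mark promoters held silent but ready, were listed less often in KO. In WT replicate 2, 110 of 1007 H3K4me3 regions on chromosome 9 carried H3K27me3 (10.9%, interval 9.14 to 13%), beside 11.0% elsewhere. In KO replicate 2 it was 33 of 1121 (2.94%, interval 2.10 to 4.11%), against 5.37% elsewhere. In replicate 1 it was 7 of 642 in WT (1.09%, against 1.99% elsewhere) and 0 of 795 in KO, which allows up to 0.377%, against 0.446% elsewhere. KO replicate 1 listed only 1 H3K27me3 peak on the chromosome. Its count of 0 was thus nearly fixed in advance, and nothing is read from it or its limit. KO was below WT in both replicates, on chromosome 9 and elsewhere, though on chromosome 9 only replicate 2 is informative. On chromosome 9 KO replicate 2 also listed fewer H3K27me3 regions than WT replicate 2, 158 against 1075. Elsewhere it listed more, 15546 against 12969. The part of H3K27me3 region number in the lower shares was not tested.

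The authors' difference lists name the regions that differ most. A region was called WT-higher or KO-higher when a difference peak of that direction lay in it in both replicates and none of the other direction in either. H3K27me3 had 92 WT-higher regions on chromosome 9, 8.20% of its regions, where 3.76% of all regions were called so. It had 0 KO-higher regions, which allows 0.267% of 1122, where 0.171% were. H3K36me3 had 75 WT-higher regions, 2.97%, against 1.24% of all regions, and 3 KO-higher regions, 0.119% against 0.668%. H3K4me3 had 25 WT-higher regions, 2.02% against 1.12%, and 43 KO-higher regions, 3.47% against 10.8%. The order of the H3K4me3 counts turned with the rule. In replicate 1 alone 180 regions were WT-higher and 150 KO-higher, and in replicate 2 alone 139 and 116. Over all chromosomes KO-higher regions were the more numerous in each replicate, with 5206 against 1811 and 5991 against 1278. Among the 614 regions listed in all 4 libraries 8 were WT-higher and 1 was KO-higher, against 46 and 83 of 11100 over all chromosomes.

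The WT-higher regions were spread out. Those of H3K27me3 lay in 21 of 25 bins, in 74 groups of regions that were within 100 kb of each other. Those of H3K36me3 lay in 22 bins and 50 groups, and those of H3K4me3 in 14 bins and 22 groups. Over all chromosomes, WT-higher regions of H3K27me3, H3K36me3 and H3K4me3 lay in 295, 174 and 195 of 538 bins. They formed 747, 258 and 265 groups there. Bins with most were 105 to 110 Mb with 11 and 65 to 70 Mb with 10 for H3K27me3, and 95 to 100 Mb with 9 for H3K36me3. They were wide regions: the median width was 6751.5 bp in H3K27me3 against 1351 bp over all its chromosome 9 regions, and 4509 bp against 2309.5 bp in H3K36me3. A wide region offers more room for a difference peak, and this was not adjusted for.

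**Figure D5:**
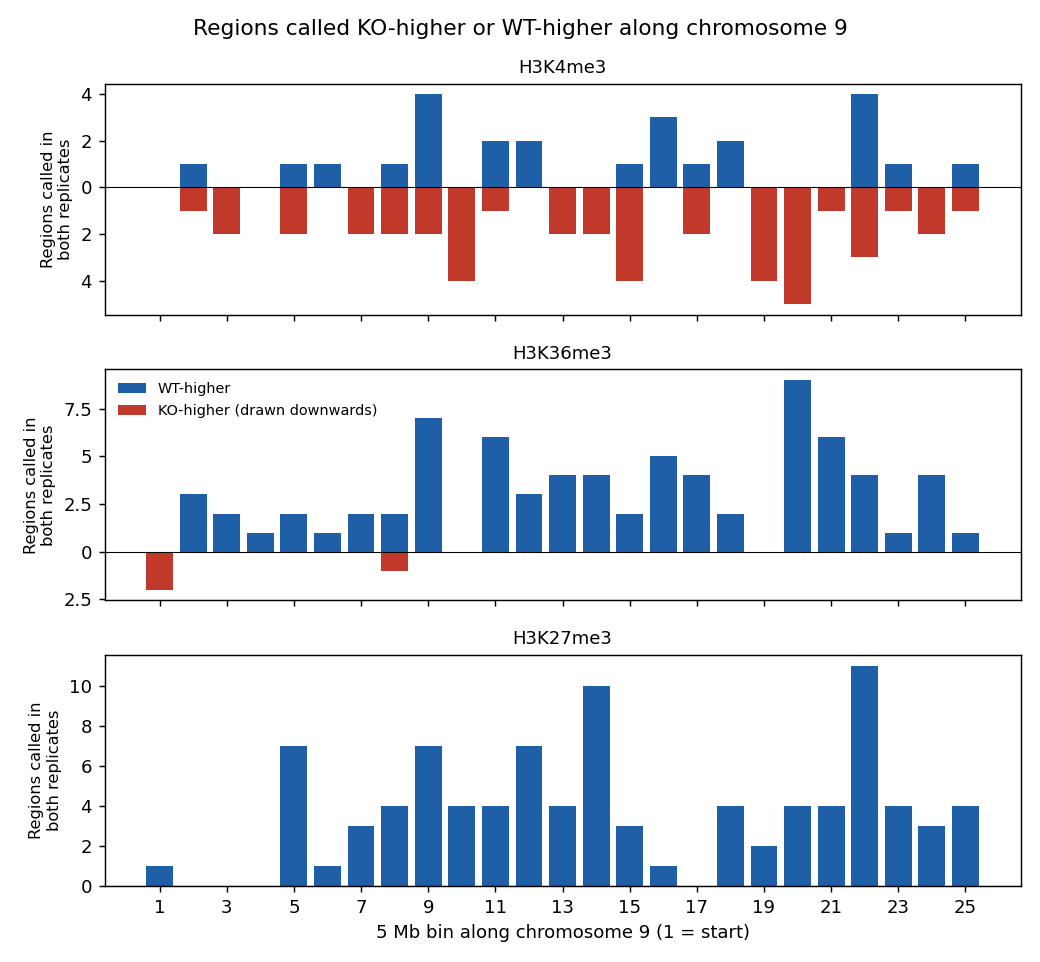
Number of regions called in both replicates (vertical axis) per 5 Mb bin of chromosome 9 (horizontal axis), 1 panel per mark, with WT-higher regions drawn upwards and KO-higher regions downwards. The WT-higher regions of H3K27me3 lie in 21 of 25 bins, against 295 of 538 bins over all chromosomes, and there are 0 KO-higher ones. H3K4me3 has 43 KO-higher and 25 WT-higher regions.

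No gene is assigned to the regions that follow, since an annotation of mm9 was not used here. Their lengths are covered bp in the extract lists. The Polycomb region ranked first, chr9:99762884-99781480, covered 9688 and 18597 bp in WT replicates 1 and 2 and 0 and 5868 bp in KO. The next, chr9:62981073-63001778, had 18264 and 20706 bp in WT and 0 and 5862 bp in KO. In both, KO replicate 2 kept a part of the region and KO replicate 1 none. At chr9:64230858-64239590 WT had 5237 and 8733 bp and neither KO library a peak. The other ranked regions, chr9:58045657-58052429 and chr9:106045934-106055769, had 3160 and 4869 bp left in KO replicate 2 and none in KO replicate 1.

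The 3 widest H3K27me3 regions of the chromosome were all WT-higher in both replicates. The widest, chr9:74693211-74717216, had 16272 and 24006 bp in the WT lists and 0 bp in those of KO. At chr9:44938103-44961158 WT had 4020 and 23056 bp and KO none. At chr9:24564908-24587959 WT had 16518 and 23052 bp, and KO replicate 2 had 1985 bp. Other wide regions were kept to a larger extent in KO replicate 2. At chr9:98848898-98869156, 20259 bp wide, it covered 11151 bp, and at chr9:37256613-37270503, 13891 bp wide, it covered 8769 bp, while KO replicate 1 had 0 and 657 bp. This pair was chosen after its values were seen.

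Of the 5 H3K36me3 regions ranked first on the WT side, 2 were neighbours and the other 3 lay far apart. At chr9:58133036-58147062 WT had 10826 and 13553 bp, and at chr9:58148190-58159633 it had 10096 and 11444 bp. KO had none in either. The WT-higher H3K4me3 region chr9:58155846-58161963 overlaps the end of the latter, where WT had 4746 and 6118 bp against 2386 and 3816 bp for KO. At chr9:50867898-50871923 WT had 2915 and 4026 bp and KO none. At chr9:95569621-95575707 WT had 2688 and 6087 bp and KO replicate 2 had 901 bp. The fifth, chr9:78488367-78490873, was listed against extract in WT replicate 2 alone, with 2507 bp.

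The 3 widest H3K36me3 regions were shorter in KO and were called in replicate 1 only. The widest, chr9:110035397-110143302, had 57459 and 76558 bp covered in the KO libraries, against 99620 and 107232 bp for WT. At chr9:82757122-82854038 the KO lengths were 51598 and 78329 bp and the WT lengths 88867 and 96917 bp. At chr9:79484264-79564562 KO had 0 and 55812 bp and WT 71967 and 80299 bp. KO was below the WT library of the same number in each.

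The KO-higher H3K36me3 regions were only 3, and in each the extract list of KO replicate 1 alone held a peak. They were chr9:3003809-3006128, chr9:3035538-3036759 and chr9:35112487-35113333, with 2320, 1222 and 847 bp. The first pair lies at the start of the listed positions of the chromosome, which begin at 2999852. There the KO difference list of replicate 2 had 13 of its 22 chromosome 9 peaks, and none of the 13 was matched by a peak of that library's own extract list. In replicate 1 it was 4 of 21, with 2 of the 4 matched.

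Among H3K4me3 regions the 5 strongest on the KO side were absent from WT. The first, chr9:70044166-70045690, had 1356 and 1525 bp in KO. The next, chr9:98398721-98400293, had 1403 and 1573 bp, and chr9:30897594-30899055 had 1205 and 1462 bp. They were narrow, like the KO-higher regions as a whole, whose median width was 1422 bp. The remaining pair was chr9:70108506-70110052, within 100 kb of the first, and chr9:108006069-108007608.

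On the WT side most H3K4me3 regions were still listed in KO replicate 2. At chr9:43550848-43554149 WT had 1815 and 3302 bp, KO replicate 2 had 791 bp and KO replicate 1 none. At chr9:50883490-50886069 WT had 1832 and 2580 bp and KO replicate 2 had 1721 bp. KO replicate 2 listed 23 of the 25 WT-higher regions and KO replicate 1 listed 8. The other regions ranked here, chr9:58335354-58337667 and chr9:26961832-26963506, had 1485 and 1128 bp in KO replicate 2 and none in KO replicate 1. The 3 widest H3K4me3 regions, led by chr9:41387092-41397485 where KO had 8356 and 10209 bp against 7947 and 10228 bp for WT, were called in neither direction.

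Regions of different marks called within 10 kb of each other formed 9 loci. Such loci were not counted on other chromosomes, so whether 9 or any combination among them is unusual cannot be said. In 4 of them H3K36me3 and H3K4me3 were both WT-higher, as at chr9:85735013-85738704, where the KO libraries had 2772 and 3166 bp of H3K4me3 and the WT libraries 2886 and 3692 bp. The H3K36me3 region beside it, chr9:85737704-85744991, had 3339 and 7288 bp in WT and none in KO. At these 4 loci the called H3K4me3 regions stayed listed in KO and the called H3K36me3 regions were not. In 1 locus H3K27me3 and H3K4me3 were both WT-higher. The other 4 loci combined marks in opposite directions.

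In 2 of those 4, H3K27me3 was WT-higher and H3K4me3 KO-higher. At chr9:47335399-47344723 H3K27me3 had 2357 and 9325 bp in WT and none in KO. The H3K4me3 region inside it, chr9:47337277-47341842, held 2653 and 4566 bp for KO, against 1160 and 2881 bp for WT. A pair of further KO-higher H3K4me3 regions lay next to it, at chr9:47352840-47354848 and chr9:47360678-47361765, with 2009 and 1088 bp in KO replicate 2 and none in WT. The other such locus was chr9:24564908-24587959, the third in width above, beside chr9:24595017-24596166, where H3K4me3 had 901 and 1150 bp in KO and none in WT. The last 2 loci had WT-higher H3K36me3 beside KO-higher H3K4me3. An example is chr9:82854171-82865060, with 4555 and 10890 bp of H3K36me3 in WT and 0 and 717 bp in KO.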

How the data were processed

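The 12 ChIP libraries were grouped by mark, genotype and replicate number as their titles give them. The submitters' processing notes name Bowtie 0.12.7, the build mm9 and MACS without a version. In 24 lists, made per library, the authors gave each peak a score between 80 and 3233.06 by a formula that was not stated. The score was used to filter and rank peaks within a list. No source names the control of a difference list, so each call's direction rests on reading it as the opposite genotype with that number. List starts were read as counted from 0, and printed positions count from 1.

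Python 3.11.15 with numpy 2.4.6, scipy 1.17.1 and matplotlib 3.10.9 was used. Peaks on chromosomes 1 to 19 and X were merged per mark, with an overlap of at least 1 bp, and 371 peaks on other contigs were left out. Ratios were taken within replicate numbers, with 1 kb added to both lengths in bins. Code was checked on simulated lists. The text names, for each mark, the 5 regions per direction whose top difference peak ranked highest in its list on average over the replicates, the 3 widest regions and loci within 10 kb. Members and rules were chosen with earlier results of these data known. Alternatives were other scores, bins, minimums, pseudocounts, pairings and left-out libraries.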

Additional observations from a re-analysis of the deposited data

Results flagged for a closer look

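Peaks on the unplaced contig of chromosome 9 stood outside the comparisons, and 8 lists held more than the 3 peaks that a count of 0 allows. In H3K36me3 the list of WT replicate 2 against extract covered 53.678 kb of the contig with 18 peaks and its difference list covered 41.268 kb with 12. The extract list of WT replicate 1 covered 9.1 kb with 6 peaks, and the KO lists covered 3.67 and 6.087 kb with 2 and 3. In H3K27me3 WT replicate 2 covered 10.465 kb with 9 peaks and the other 3 libraries had none. In H3K4me3 the KO lists had 14.115 and 19.933 kb there and the WT lists 11.998 and 20.696 kb. The last mark thus had similar lengths in both genotypes of the same number.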

How the results depend on the processing

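Of 117 alternatives to 17 results, 80 stayed near the value reported, 37 moved and 0 reversed. A count was near when within a factor of 1.5, and other values when within the SD over the 2 replicates. That SD is wide in H3K27me3, where length ratios of -3.18 and -6.44 counted as near -4.81. Only a ratio could reverse, since a count or an SD has no sign, so the 0 says nothing about those. The order of the 2 H3K4me3 region counts did turn, as the counts below show. All 37 alternatives to a ratio of length or number were below 0. With scores of at least 160 the H3K36me3 ratio was -0.98 for length and -0.44 for number, and KO replicate 1 of H3K27me3 had no peak on the chromosome, so that mark gave no ratio. In 10 Mb bins 13 of 13 were on the WT side in H3K4me3 (35.7% in the genome), 13 in H3K36me3 (28.1%) and 13 in every counted mark. In 2.5 Mb bins it was 31 of 41 in H3K4me3 (37.8%), 39 of 43 in H3K36me3 (29.8%) and 29 of 41 in every counted mark. The genome share for every counted mark was not taken at these sizes. For H3K27me3, minimums of 4 and 20 peaks gave 18 and 3 bins, and crossing the replicate numbers gave 14, which were all the bins counted. In the genome 39.8%, 52.8% and 25% of bins were on the WT side in these settings. With 5 kb added to both lengths only 4 of 6 were on the WT side, against 17.5% of bins in the genome.

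WT-higher regions of H3K4me3 numbered 14 with scores of at least 160, 15 when difference peaks had to cover 50% of the region and 8 if all 4 extract lists had to hold the region. The KO-higher ones numbered 20 with the higher score and 1 in all 4. In H3K36me3 the WT-higher counts were 17, 30 and 8, and the KO-higher counts were 0 with the higher score and 0 in all 4. In H3K27me3 the WT-higher counts were 19 over 50% of the region and 1 in all 4. Over all chromosomes, regions in all 4 lists numbered 11100 in H3K4me3, 11253 in H3K36me3 and 206 in H3K27me3. Of these 46, 19 and 87 were WT-higher and 83, 65 and 0 KO-higher. Counts with the higher score or the 50% rule were made on chromosome 9 only, so no share over all regions stands beside them.

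Leaving out libraries moved the H3K36me3 length ratio between -0.98 and -0.73 and the H3K27me3 bin count between 6 and 19. A call in 1 replicate in place of both gave 139 to 180 WT-higher and 116 to 150 KO-higher regions in H3K4me3. It gave 221 to 817 and 13 to 17 in H3K36me3, and 96 to 583 and 0 to 12 in H3K27me3. Over all chromosomes, replicates 1 and 2 alone gave 2294 and 3349 WT-higher and 1682 and 918 KO-higher of 39794 H3K36me3 regions. For H3K27me3 they gave 967 and 5034 WT-higher and 97 and 3269 KO-higher of 24016. The SD of H3K36me3 bins was 0.342 without replicate 2 and 0.560 without replicate 1, and 0.253 in 10 Mb bins. The causes were not tested. No paired analysis was possible because every result comes from no test. The ratios themselves were taken within replicate numbers. The precision of every length is limited by library depth, which is not known here, and least certain where KO replicate 1 of H3K27me3 had 1 peak.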

Other observations

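Over the bins of chromosome 9 the marks were not positively correlated. The mean relative log2 ratios of H3K4me3 and H3K36me3 had an r of -0.39 over 25 bins, against 0.43 over 452 bins of other chromosomes. For H3K36me3 and H3K27me3 in replicate 2, r was -0.01 over 19 bins against 0.45 over 395. For H3K4me3 and H3K27me3 it was -0.04 over 19 bins against 0.46 over 394. The bins share libraries and gene density, and these values are descriptions. The r of the other chromosomes pools 19 of them and so includes differences between chromosomes, which that of chromosome 9 does not. No other chromosome was taken alone, so the lack of a positive r cannot be called particular to chromosome 9.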
